A study of Mus musculus with 14 samples.

Results

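The Slco genes encode the organic anion transporting polypeptides (Oatps), membrane carriers that bring bile acids, steroid conjugates, thyroid hormones, prostaglandins and many drugs into cells. In the mouse liver, Slco1b2, Slco1a1, Slco1a4 and Slco2b1 are known as carriers of the hepatocyte's basolateral membrane, the side that faces the blood. They clear organic anions from portal blood without sodium, beside the sodium-dependent bile acid carrier Slc10a1 (Ntcp). Slco2a1 is known as the prostaglandin transporter, Slco1c1 as a thyroxine carrier of brain vessels, and Slco3a1 and Slco4a1 as broadly expressed members. The genes described here are 8 members chosen by their symbols: Slco1a1, Slco1a4, Slco1b2, Slco1c1, Slco2a1, Slco2b1, Slco3a1 and Slco4a1. They are 8 of the 25212 genes in the table of read counts, which also holds 5 other Slco genes.

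The livers came from male C57BL/6 mice made obese by a high-fat diet (HFD) that began at 6 weeks of age and ran for 12 weeks before allocation to groups. The 5 DIO (diet-induced obesity) mice had no surgery, the 4 GB-IL mice had the gallbladder joined to the ileum so that bile drained into the distal small intestine, and the 5 RYGB mice had Roux-en-Y gastric bypass. Livers were taken 8 weeks after surgery by the labels, with 1 RNA-seq library from each of 14 livers. All 3 groups were HFD fed, and the RNA-seq had no sham-operated group, so surgery itself and bile diversion cannot be told apart against DIO. Libraries held 18223135 to 28656631 counted reads, with a median of 20310775. The GB-IL livers were unlike one another. On the first principal component, with 48.5% of the variance, the scores of the GB-IL livers were 134, 106, 20.1 and -35.4 in the order of their numbers, and only liver 4 fell within the DIO range of -45.7 to -21.9. Differences of the members between GB-IL and another group, and the medians and calls of the gene lists in GB-IL against DIO, are therefore also given without GB-IL livers 1 and 2. Of the 465 genes called in GB-IL against DIO by edgeR, 0 were left without these livers, and the count was also 0 without either of them or without any single DIO liver. The hepatocyte markers were present in every liver, with a summed level of 91580 to 159220 CPM (reads of a gene per total read count times 1000000, and, for single genes but not for the sums over a list, scaled by the trimmed mean of M values). In bulk liver, fewer cells of a type and less RNA per cell cannot be told apart.

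The Slco1 genes stand together on mouse chromosome 6 (GRCm38). Slco1c1 (ENSMUSG00000030235) lies at chr6:141524368-141570177 and Slco1b2 (ENSMUSG00000030236) at chr6:141629518-141686646, both on the plus strand. Slco1a4 (ENSMUSG00000030237) lies at chr6:141805440-141856199 and Slco1a1 (ENSMUSG00000041698) at chr6:141907282-141946962, both on the minus strand. Slco1a6 and Slco1a5 complete the cluster of 6 genes, which spans 799 kb. The other members are elsewhere, Slco2b1 (ENSMUSG00000030737) at chr7:99657804-99711340 and Slco3a1 (ENSMUSG00000025790) at chr7:74275419-74554780, both on the minus strand, and Slco2a1 (ENSMUSG00000032548) at chr9:102988712-103096002 and Slco4a1 (ENSMUSG00000038963) at chr2:180456245-180474867, both on the plus strand. All 8 are annotated as protein coding.

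The promoters of the 3 neighbouring genes that differed most between livers are shown because, within 1 gene cluster, their mRNAs stood at opposite ends of the range in GB-IL livers 1 and 2. Each run is the 250 bases before the RefSeq transcription start (GRCm38.p6), written 5′ to 3′ on the gene's own strand. Capitals mark ATTGG, the reverse complement of the CCAAT box.
Slco1b2 (chr6:141629268-141629517, plus strand): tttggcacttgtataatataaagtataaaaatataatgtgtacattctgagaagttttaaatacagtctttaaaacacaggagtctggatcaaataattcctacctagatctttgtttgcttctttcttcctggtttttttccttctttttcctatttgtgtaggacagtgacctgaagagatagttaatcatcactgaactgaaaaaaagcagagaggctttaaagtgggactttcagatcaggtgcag
Slco1a4 (chr6:141856221-141856470, minus strand): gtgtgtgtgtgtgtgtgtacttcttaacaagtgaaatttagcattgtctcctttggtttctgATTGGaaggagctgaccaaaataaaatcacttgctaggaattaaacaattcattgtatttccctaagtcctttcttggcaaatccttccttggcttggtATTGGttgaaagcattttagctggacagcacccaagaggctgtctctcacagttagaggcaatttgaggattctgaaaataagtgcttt
Slco1a1 (chr6:141946963-141947212, minus strand): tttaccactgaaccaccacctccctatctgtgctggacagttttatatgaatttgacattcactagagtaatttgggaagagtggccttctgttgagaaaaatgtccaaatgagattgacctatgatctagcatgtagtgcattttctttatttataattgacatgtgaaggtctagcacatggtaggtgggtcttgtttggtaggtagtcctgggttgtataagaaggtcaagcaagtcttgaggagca
CCAAT, searched on both strands in the 7 members with a promoter entry, was matched in reverse at 188 and 89 bases before the start of Slco1a4, at 164 in Slco1c1 and at 155 in 1 of the starts of Slco2b1. It was in 33.8% of all 32851 promoters of the same length. These are matches of letters only. Slco3a1 had no entry.

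The order of the members was compared per length, as CPM per kb of annotated exon. In the DIO livers, Slco1b2 was the leading member at 205 ± 43.4 CPM per kb (SD, n = 5), followed by Slco1a1 at 42.3 ± 26.4, Slco2b1 at 35.2 ± 2.81, Slco1a4 at 6.06 ± 2.00, Slco2a1 at 3.60 ± 0.769 and Slco3a1 at 0.437 ± 0.0991. Slco4a1 and Slco1c1 were near the limit of detection, at 0.0587 ± 0.0282 and 0.00762 ± 0.00783 CPM per kb. The range of Slco1a1 in the DIO livers overlapped those of Slco2b1, Slco1a4 and Slco2a1, whereas the ranges of Slco1b2, Slco2b1, Slco1a4, Slco3a1 and Slco4a1 were each apart from the next of these. Slco1a4 and Slco2a1 also overlapped. The RYGB livers had the same order, with Slco1b2 at 180 ± 64.9, Slco1a1 at 57.9 ± 47.0, Slco2b1 at 27.1 ± 2.01, Slco1a4 at 11.8 ± 6.71, Slco2a1 at 5.92 ± 1.18 and Slco3a1 at 0.541 ± 0.0479 CPM per kb (SD, n = 5). In the GB-IL livers the means placed Slco1a4 next to Slco1b2, with Slco1b2 at 101 ± 111, Slco1a4 at 24.5 ± 19.4, Slco2b1 at 17.65 ± 13.96, Slco1a1 at 9.05 ± 10.8, Slco2a1 at 3.62 ± 1.23 and Slco3a1 at 0.667 ± 0.251 CPM per kb (SD, n = 4). The SDs of the first 4 were near their means, so that order did not exceed the spread between these livers.

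The make-up of the family shifted in GB-IL livers 1 and 2. Slco1b2 made up 58.8% to 77.4% of the summed CPM per kb of the 8 members in the DIO livers, and 54.1% to 78.3% in the RYGB livers. It made up 6.14% in GB-IL liver 1 and 34.7% in GB-IL liver 2, against 74.3% and 76.8% in GB-IL livers 3 and 4. Slco1a4 took the leading place in GB-IL livers 1 and 2, with 74.4% and 48.3%. Its share was 1.23% to 3.12% in the DIO livers and 1.67% to 13.4% in the RYGB livers. The summed level of the family was 66.7 and 59.2 CPM per kb in GB-IL livers 1 and 2 and 145 to 404 in the other 12 livers. So GB-IL livers 1 and 2 held both less Slco mRNA in sum and a different leading transporter.

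**Figure D1:**
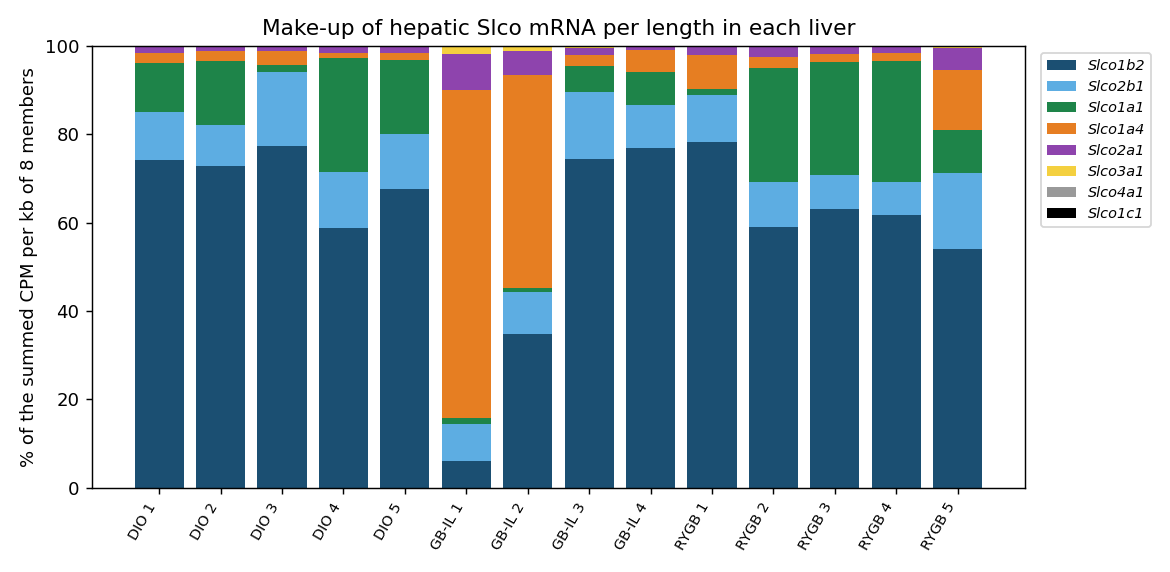
Share of each Slco member in the summed CPM per kb of the 8 members (y axis, %) in each of the 14 livers (x axis, by group and liver number), with 1 bar per liver. Slco1b2 fills most of every bar other than those of GB-IL livers 1 and 2, where Slco1a4 takes 74.4% and 48.3%.

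Each member was compared between groups with edgeR's quasi-likelihood test, 1 fit over 14 livers, with Benjamini-Hochberg adjustment over the 14252 genes that had enough counts to be tested. Of the 8 members, 6 were tested. Between GB-IL and DIO, 0 of these 6 passed a false discovery rate (FDR) of 0.05 by edgeR, whereas 3.26% of all tested genes did. At an unadjusted p under 0.05 there were 3 of 6, against 23.1% of all genes, and DESeq2 called 1 of 6 (Slco1a4), against 9.07% of all genes. By limma's voom 0 were called, against 4.13%. The median log2 fold change of the 6 was -0.50, with 3 higher and 3 lower, beside 0.04 over all tested genes. Between RYGB and DIO, 0 of 6 members and 0 of all genes (0%) passed the FDR by edgeR. At an unadjusted p under 0.05 there was 1 of 6, against 8.71% of all genes. The median of the 6 was 0.38, beside 0.01 over all genes. These 2 comparisons share the DIO livers.

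**Figure D2:**
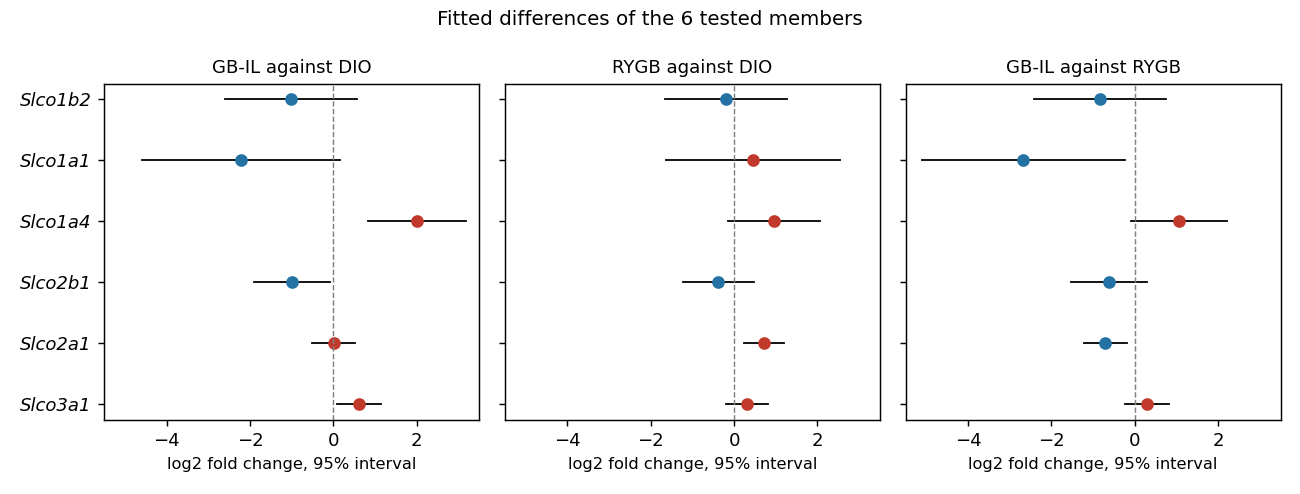
Fitted log2 fold change (x axis, points) with its 95% interval (lines) for the 6 tested members (y axis) in the 3 comparisons, edgeR, 14 livers. Points to the right of 0 (red) are higher in the first-named group and points to the left (blue) are lower. In GB-IL against DIO, Slco1a4 stands at 2.01 and Slco1a1 at -2.22, and the intervals of Slco1a1, Slco1b2 and Slco2a1 reach across 0.

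Slco1b2, the mouse counterpart of the human hepatocyte carriers OATP1B1 and OATP1B3, was at 1028, 1368, 871, 830 and 956 CPM in DIO livers 1 to 5. In the GB-IL livers it was at 20.2, 101, 691 and 1185 CPM, and in the RYGB livers at 942, 815, 1073, 1228 and 387 CPM. GB-IL livers 1 and 2 lay below every other liver, GB-IL liver 4 lay inside the DIO range, and RYGB liver 5 was the lowest of the RYGB livers. Within the GB-IL group the highest liver had 58.8 times the level of the lowest, beside 1.65 times within DIO. The difference between GB-IL and DIO was -1.02 on the log2 scale (SE 0.746, 95% interval -2.61 to 0.58, edgeR adjusted p = 0.398), which is within the spread of the livers. Without GB-IL livers 1 and 2 it was -0.12 (edgeR adjusted p = 0.991). Between RYGB and DIO the difference was -0.19 (SE 0.688, interval -1.65 to 1.28, edgeR adjusted p = 0.954).

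Slco1a1, an Oatp that in mice is known to be higher in male than in female liver, was at 166, 288, 19.3, 389 and 254 CPM in DIO livers 1 to 5. It was at 4.78, 3.22, 59.3 and 124 CPM in the GB-IL livers, and at 18.8, 380, 468, 584 and 74.5 CPM in the RYGB livers. The groups overlapped, since DIO liver 3 and RYGB liver 1 were lower than GB-IL livers 3 and 4. All 4 GB-IL livers lay below 4 of the 5 DIO livers, and DIO liver 3 lay between GB-IL livers 1 and 3. The fitted difference between GB-IL and DIO was -2.22 (SE 1.12, interval -4.60 to 0.16, edgeR adjusted p = 0.244). Without GB-IL livers 1 and 2 it was -1.30 (edgeR adjusted p = 0.905). Between RYGB and DIO the difference was 0.45 (SE 0.982, interval -1.64 to 2.55, edgeR adjusted p = 0.925), and it was -0.40 with a replicate block, so its direction depends on the model. Slco1a1 was the most variable tested member in DIO, with a 20.2-fold range over 5 livers without surgery.

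Slco1a4 (Oatp2), a carrier of bile acids and cardiac glycosides and a known target of the xenobiotic receptor Nr1i2 (PXR), differed in the other direction. It was at 41.9, 54.8, 45.6, 22.5 and 29.6 CPM in the DIO livers and at 318, 183, 28.0 and 98.8 CPM in the GB-IL livers. The RYGB livers had 119, 45.0, 37.0, 50.7 and 125 CPM. GB-IL livers 1, 2 and 4 lay above every DIO liver, GB-IL liver 3 lay inside the DIO range, and RYGB livers 1 and 5 lay above every DIO liver while the other 3 did not. The fitted difference between GB-IL and DIO was 2.01 on the log2 scale, a fold of 4.04 (SE 0.550, interval 0.84 to 3.19), with an unadjusted p of 0.00237 and an edgeR adjusted p of 0.0586, so it missed the threshold. DESeq2 put the adjusted p at 0.00555 for a difference of 2.02, and limma's voom with sample weights put it at 0.450 for 0.87. Without GB-IL livers 1 and 2 the difference was 0.69 (edgeR adjusted p = 0.868), without GB-IL liver 1 alone it was 1.42 (edgeR adjusted p = 0.227), and without GB-IL liver 2 alone 1.93 (edgeR adjusted p = 0.132). Without any single DIO liver the edgeR adjusted p was 0.0969 to 0.148. Without GB-IL liver 3 alone the difference was 2.36 (edgeR adjusted p = 0.0269, with 3.99% of all genes called), and without GB-IL liver 4 alone it was 2.17 (edgeR adjusted p = 0.0174, with 24.6% of all genes called). Between RYGB and DIO it was 0.95 (SE 0.517, interval -0.15 to 2.06, edgeR adjusted p = 0.626).

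Slco2b1, a hepatocyte carrier of steroid sulfates, was the least variable tested member in DIO. Its DIO livers had 183, 210, 228, 216 and 213 CPM, its GB-IL livers 32.9, 33.6, 172 and 183 CPM, and its RYGB livers 153, 168, 158, 179 and 149 CPM. All 5 RYGB livers lay below all 5 DIO livers. All 4 GB-IL livers did too, but the highest GB-IL liver and the lowest DIO liver were apart by less than counting error, at 182.57 and 182.61 CPM. The members whose groups did not overlap numbered 1 in GB-IL against DIO, where 4.17% of all tested genes did not overlap, and 2 in RYGB against DIO, where 3.53% did not. The difference between GB-IL and DIO was -0.997 (SE 0.431, interval -1.92 to -0.08, edgeR adjusted p = 0.187). It was -0.26 without GB-IL livers 1 and 2 (edgeR adjusted p = 0.764). Without GB-IL liver 4 it was -1.41 (edgeR adjusted p = 0.0339, with 24.6% of all genes called). The difference between RYGB and DIO was smaller, at -0.38, with the same direction in 5 of 5 livers (SE 0.398, interval -1.23 to 0.47, edgeR adjusted p = 0.819). In exons Slco2b1 shares 471 bases with the antisense gene Gm15635, and whether the counting used strand is not given in the sources used here.

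Slco2a1, which takes up prostaglandins for their breakdown, was the other member whose groups did not overlap in RYGB against DIO. It was at 50.3, 58.1, 30.9, 53.1 and 51.7 CPM in the DIO livers, at 72.9, 42.6, 46.1 and 34.6 CPM in the GB-IL livers and at 58.4, 90.1, 79.3, 72.9 and 100 CPM in the RYGB livers. The RYGB livers lay above all DIO livers, the closest pair being 58.4 and 58.1 CPM, and the GB-IL livers lay around the DIO livers. The difference between RYGB and DIO was 0.72 on the log2 scale, a fold of 1.64 (SE 0.225, interval 0.24 to 1.20), with an unadjusted p of 0.00627 and an edgeR adjusted p of 0.425. By limma's voom with sample weights it was 0.67 with an adjusted p of 0.0159, where 11.9% of all genes were called, whereas DESeq2 did not call it and called 0.681% of all genes. Between GB-IL and DIO the difference was 0.01 (SE 0.238, interval -0.50 to 0.51, edgeR adjusted p = 0.991). Its sign changed under 7 of 23 alternatives, so it has no direction.

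Vessel markers were set beside Slco2a1. Slco2a1 is also made by endothelial cells, and of 12 sinusoidal and vascular endothelial markers 11 were higher and 1 lower in RYGB than in DIO. By edgeR 0 of the 12 passed the FDR. An unadjusted p under 0.05 was reached by 8.71% of all genes and by 2 of these 12 markers. Their median difference was 0.43, beside 0.01 over all genes. Their summed level was 318 to 430 CPM in the DIO livers, 300 to 480 in the GB-IL livers and 315 to 1005 in the RYGB livers, with the highest value in RYGB liver 5, which also had the most Slco2a1. RYGB liver 2, however, had the lowest summed level of these markers among the RYGB livers and the second most Slco2a1. The part of these cells in the Slco2a1 result was not tested.

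Slco3a1 had few reads. It was at 4.87, 3.35, 2.65, 4.13 and 3.51 CPM in the DIO livers, at 8.67, 5.48, 4.71 and 3.76 CPM in the GB-IL livers and at 5.09, 4.04, 4.86, 4.39 and 4.57 CPM in the RYGB livers, which rest on 52 to 165 reads per liver. GB-IL livers 1 and 2 lay above the DIO range and the other groups overlapped. The difference between GB-IL and DIO was 0.61 (SE 0.248, interval 0.08 to 1.14, edgeR adjusted p = 0.166). Without GB-IL liver 4 it was 0.75 (edgeR adjusted p = 0.0377, with 24.6% of all genes called). Without GB-IL livers 1 and 2 it was 0.17 (edgeR adjusted p = 0.967). Between RYGB and DIO it was 0.31 (SE 0.235, interval -0.19 to 0.81, edgeR adjusted p = 0.740).

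**Figure D3:**
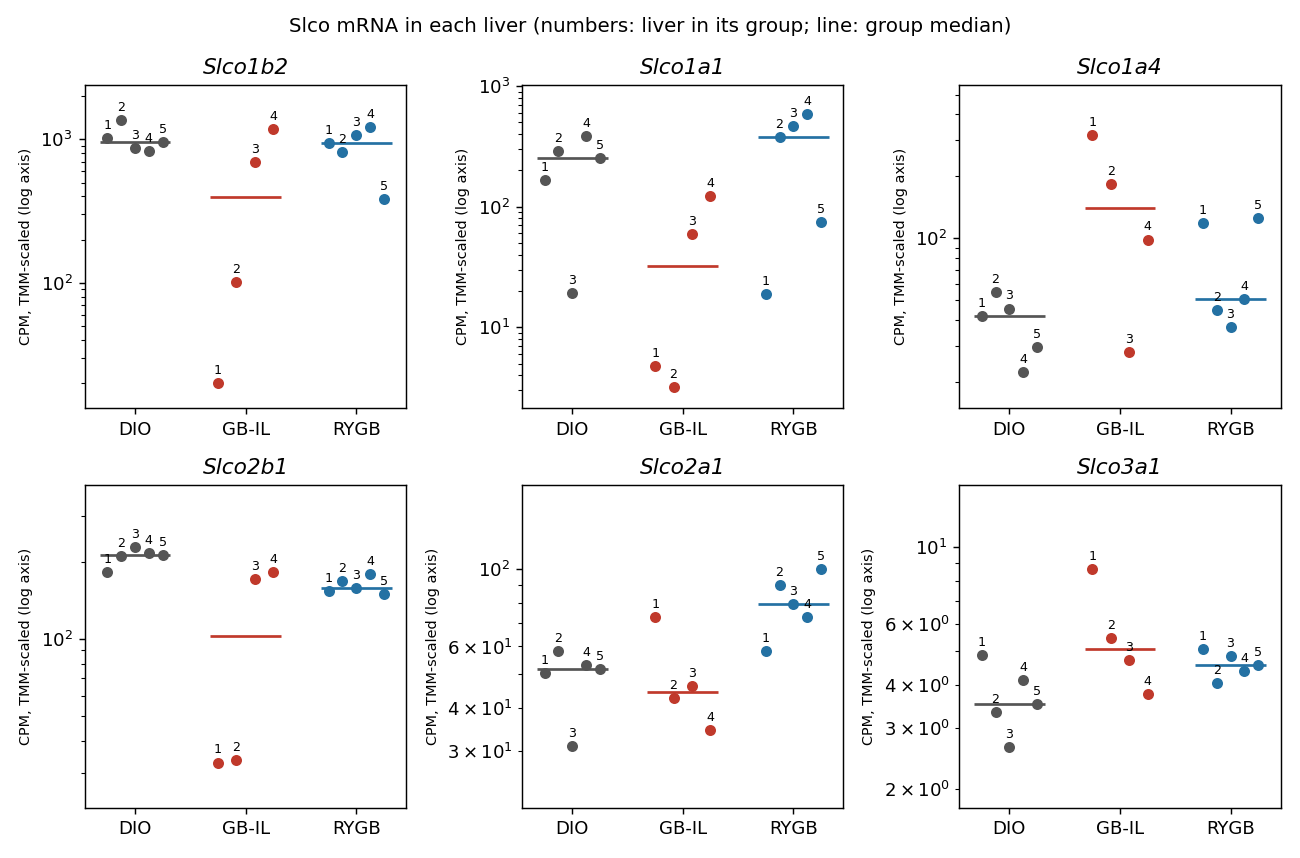
CPM (y axis, log scale) of the 6 tested members in each liver, by group (x axis). Numbers beside the points are liver numbers and lines are group medians. GB-IL livers 1 and 2 are the lowest of all for Slco1b2, Slco1a1 and Slco2b1 and the highest of all for Slco1a4.

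Slco1c1 and Slco4a1 had too few counts to enter the test. Slco1c1 had 1, 1, 0, 0 and 2 reads in the DIO livers, 6, 0, 0 and 4 reads in the GB-IL livers and 0, 1, 2, 3 and 1 reads in the RYGB livers. In the 5 livers with 0 reads, a limit of 3 counts allows up to 0.127 to 0.170 CPM. The ratio of summed rates was 2.79 for GB-IL against DIO (95% Clopper-Pearson interval 0.805 to 12.2, exact two-sided permutation p = 0.357) and 1.42 for RYGB against DIO (interval 0.362 to 6.63, exact permutation p = 0.540). The intervals cover counting error only, and no difference was detectable at this depth, where the smallest p the design allows is 0.00794.

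Slco4a1, a carrier of thyroid hormone and taurocholate in many tissues, had 3 to 10 reads in the DIO livers, 5 to 13 in the GB-IL livers and 5 to 13 in the RYGB livers. The 3 groups overlapped. Its ratio was 1.36 for GB-IL against DIO (interval 0.798 to 2.32, exact permutation p = 0.286) and 1.25 for RYGB against DIO (interval 0.758 to 2.09, exact permutation p = 0.365). For GB-IL against RYGB the ratio was 1.09 for Slco4a1 (interval 0.671 to 1.74, exact permutation p = 0.683) and 1.96 for Slco1c1 (interval 0.674 to 6.07, exact permutation p = 0.5).

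GB-IL and RYGB were also compared directly. No member was called: 0 of 6 passed the FDR by edgeR, as did 0 of all genes (0%), and 2 of 6 had an unadjusted p under 0.05, against 22.1% of all genes. By DESeq2 and by limma's voom 0 members were called, against 5.93% and 0.807% of all genes. Slco1a1 was lower in GB-IL by a log2 difference of -2.67 (SE 1.14, interval -5.10 to -0.24, edgeR adjusted p = 0.194), and by -1.76 without GB-IL livers 1 and 2 (edgeR adjusted p = 0.698). Slco2a1 was lower in GB-IL by -0.71 (SE 0.241, interval -1.22 to -0.20, edgeR adjusted p = 0.138), and by -1.02 without GB-IL livers 1 and 2 (edgeR adjusted p = 0.154). The differences were 1.06 for Slco1a4, -0.83 for Slco1b2, -0.62 for Slco2b1 and 0.30 for Slco3a1. All 4 of these changed sign without GB-IL livers 1 and 2. In this comparison 0 of 6 members were without overlap, against 2.84% of all genes.

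Slco1a1 and Slco1a4 are among the liver genes whose levels differ between the sexes in mice, through the pattern of growth hormone secretion and Stat5b, and they were set beside lists of such genes in these male livers. Of 15 male-predominant liver genes, all 15 had a lower fitted level in GB-IL than in DIO and 0 passed the FDR by edgeR. An unadjusted p under 0.05 was reached by 23.1% of all genes and by 7 of these 15. Their median difference was -2.23, beside 0.04 over all genes, and was -0.05 between RYGB and DIO. Without GB-IL livers 1 and 2 all 15 were still lower in GB-IL than in DIO, with a median of -1.26 beside -0.02 over all genes and 0 past the FDR. Hsd3b5, a steroid dehydrogenase of male liver, differed by -4.08 (edgeR adjusted p = 0.123) and Mup7, a major urinary protein, by -3.79 (edgeR adjusted p = 0.127) in GB-IL against DIO. Mup7 was at 150, 118, 26.7, 724 and 260 CPM in the DIO livers, 1.52, 0.508, 13.2 and 58.6 CPM in the GB-IL livers and 18.5, 409, 805, 782 and 78.9 CPM in the RYGB livers. The 5 livers with the least Mup7 were GB-IL livers 1, 2 and 3, RYGB liver 1 and DIO liver 3. These were also the 5 livers with the least Slco1a1. Mup7 was the gene nearest to Slco1a1 over the 14 livers (Pearson's r = 0.963), so this overlap does not stand for the other male-predominant genes. For Hsd3b5 the 5 lowest were GB-IL livers 1, 2 and 4 and DIO livers 1 and 3, at 0.226 to 2.93 CPM. RYGB liver 1 had 6.34 CPM of Hsd3b5 and GB-IL liver 3 had 6.998 CPM.

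Of 13 female-predominant genes 7 were tested, and 4 were higher and 3 lower in GB-IL than in DIO, with 0 passing the FDR by edgeR and a median of 0.71, which was -0.15 without GB-IL livers 1 and 2. Between RYGB and DIO 5 were higher and 2 lower, and their median was 2.06. Cux2, a transcription repressor of female liver, was high in single livers rather than in a group. The 4 livers with the most Slco1a4 were GB-IL liver 1, GB-IL liver 2, RYGB liver 5 and RYGB liver 1. In these, in that order, Cux2 was at 25.4, 19.4, 27.0 and 25.1 CPM. Cux2 was at 0.209 to 1.03 CPM in the other 10 livers. The summed level of the 13 female-predominant genes was 189, 690, 744 and 865 CPM in the same 4 livers, in that order. It was 15.2 to 409 CPM in the other 10, so GB-IL liver 1 was not apart by this sum. The 4 livers come from 2 groups and were singled out after their values were seen, so no test was made on them. GB-IL liver 4, with 98.8 CPM of Slco1a4, had only 0.443 CPM of Cux2.

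**Figure D4:**
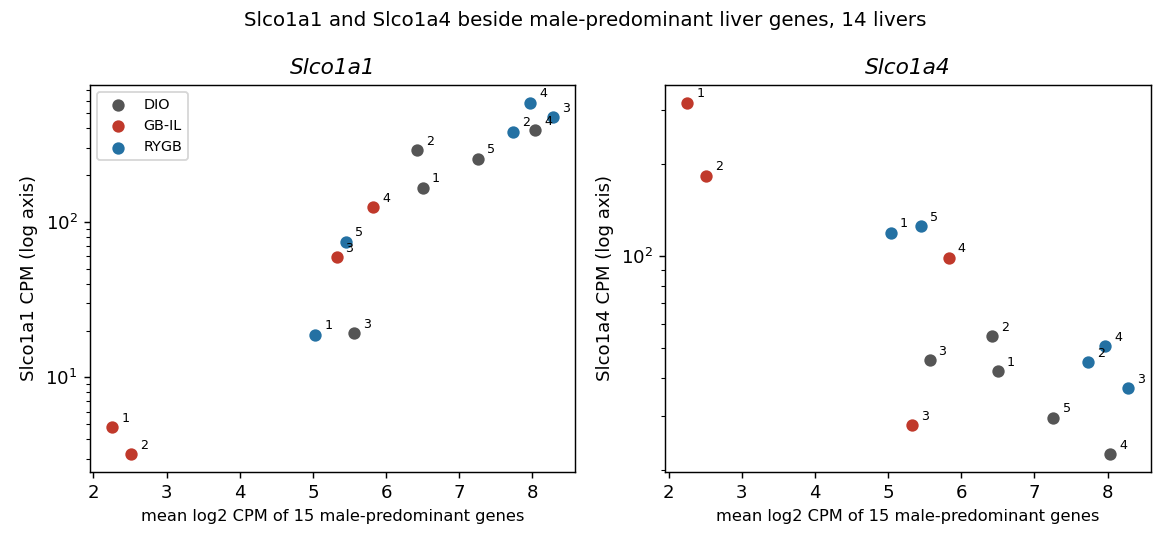
CPM of Slco1a1 (left) and Slco1a4 (right) on a log axis against the mean log2 CPM of 15 male-predominant liver genes (x axis), with 1 point per liver, coloured by group and numbered by liver. GB-IL livers 1 and 2 lie at the low end for these genes, with the least Slco1a1 and the most Slco1a4. RYGB livers 1 and 5 lie apart from the rest of their group in both panels. DIO liver 3 lies apart from its group for Slco1a1 but not for Slco1a4.

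The genes with the most similar pattern to each member were found by Pearson's correlation of log2 CPM over the 14 livers, which share the same few outlying livers, so these values are descriptions. Slco1a1 was nearest to Mup7 (r = 0.963, Spearman's rho = 0.965) and to Lama3, a laminin chain (r = 0.958). Slco1b2 was nearest to C2cd2 (r = 0.994) and to Acsm5, a mitochondrial acyl-CoA synthetase (r = 0.991), and Slco2b1 to Adra1a, the alpha-1A adrenergic receptor (r = 0.990), and 2610021A01Rik (r = 0.979). Over the 12 livers without GB-IL livers 1 and 2 the values were 0.909 for Mup7, 0.929 for C2cd2, 0.919 for Adra1a and 0.669 for 2610021A01Rik.
Slco1a4 had a looser match, at 0.882 with Ptpn14, a tyrosine phosphatase, and 0.877 with Fam177a. Without those livers the values were 0.706 and 0.708. Slco2a1 was nearest to Srsf6, a splicing factor (r = 0.952, and 0.955 over 12 livers), and Kmt2d, a histone methyltransferase (r = 0.930). Slco3a1 was nearest to 1110004F10Rik (r = 0.920) and Ppap2a (r = 0.917).

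The remaining Slco genes and the liver's other carriers show what moved beside these members. Slco1a6, from the same cluster, was the only 1 of 5 other Slco genes in the table with enough counts to be tested, at 1.70 ± 0.565 CPM in DIO (SD, n = 5), and differed by -1.31 in GB-IL against DIO (edgeR adjusted p = 0.103). Of 8 other basolateral uptake carriers, 7 were lower and 1 higher in GB-IL than in DIO with 0 past the FDR by edgeR and a median of -0.73. Slc10a1, the sodium-dependent bile acid carrier, differed by -0.66 (edgeR adjusted p = 0.169), and Slc22a23, an orphan organic ion carrier, by -0.60 (edgeR adjusted p = 0.159). The median of the 8 carriers was -0.23 without GB-IL livers 1 and 2, and -0.08 in RYGB against DIO. Slco1a6 differed by -0.82 without those livers (edgeR adjusted p = 0.727).

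Of 10 tested efflux pumps, 8 were lower and 2 higher in GB-IL than in DIO, with 0 past the FDR by edgeR and a median of -0.48. Abcc4 (Mrp4), which exports bile acids across the basolateral membrane, was at 7.88, 6.55, 2.93 and 2.62 CPM in the GB-IL livers and 1.83 to 2.41 CPM in the DIO livers. All 4 GB-IL livers lay above all DIO livers, and the difference was 1.23 (SE 0.339, edgeR adjusted p = 0.0598). GB-IL livers 1 and 2 carried most of it, since without them it was 0.37 (edgeR adjusted p = 0.883) and the median of the pumps was -0.18. Abcc6 differed by -1.02 (edgeR adjusted p = 0.116). The median over the pumps in RYGB against DIO was -0.03.

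Of 13 transcription factors known to act on Oatp genes, 11 were lower and 2 higher in GB-IL than in DIO, with 0 past the FDR by edgeR. An unadjusted p under 0.05 was reached by 23.1% of all genes and by 6 of these 13. Their median was -0.56, which was -0.26 without GB-IL livers 1 and 2. Onecut1, a hepatocyte factor, differed by -2.77 (edgeR adjusted p = 0.0803), with 33.3 CPM in DIO liver 2 and 1.78 to 5.86 CPM in the other DIO livers. Among 16 targets of PXR, CAR and Nrf2, receptors and factors that answer to xenobiotics and oxidants, 7 were higher and 9 lower in GB-IL than in DIO, 0 passed the FDR by edgeR, and the median was -0.29, or -0.02 without GB-IL livers 1 and 2. In RYGB against DIO the median was -0.30.

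Genes of the transporters' substrates were also counted. Of 13 tested genes for prostaglandin synthesis, response and breakdown, 10 were higher and 3 lower in GB-IL than in DIO. Of these, edgeR called 2 higher and 0 lower at the FDR. Over all tested genes, 3.15% were called higher and 0.112% lower. Hpgds, a prostaglandin D synthase, rose by 1.26 (SE 0.281, edgeR adjusted p = 0.0320), and every GB-IL liver exceeded every DIO liver. Ptger4, a prostaglandin E receptor, rose by 1.64 (SE 0.417, edgeR adjusted p = 0.0458), with the same separation. In RYGB against DIO, Hpgds differed by 0.90 (edgeR adjusted p = 0.387), and every RYGB liver also exceeded every DIO liver. Ptger4 differed there by 0.38 (edgeR adjusted p = 0.830). Between GB-IL and RYGB the difference was 0.36 for Hpgds (edgeR adjusted p = 0.426) and 1.26 for Ptger4 (edgeR adjusted p = 0.120). Both are low, at 0.918 and 0.446 CPM on average in DIO, and both are also made by immune cells. The list's median in GB-IL against DIO was 0.36. Without GB-IL livers 1 and 2, neither gene was called against DIO. The differences were then 1.23 for Hpgds and 1.84 for Ptger4 (edgeR adjusted p = 0.136 for each), and the list's median was 0.18. Of 11 tested genes of thyroid hormone handling, 7 were lower and 4 higher, 0 passed the FDR by edgeR and the median was -0.81, or -0.08 without GB-IL livers 1 and 2. Thrsp, a thyroid hormone and lipogenic response gene, differed by -2.05 (edgeR adjusted p = 0.130) in GB-IL and -2.66 (edgeR adjusted p = 0.348) in RYGB. Ttr, which carries thyroxine in plasma, differed by -1.20 in GB-IL against DIO (edgeR adjusted p = 0.0816).

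Markers of other liver cells differed in GB-IL beside these results. Over all tested genes, edgeR called 3.15% higher and 0.112% lower in GB-IL than in DIO. Of 11 Kupffer cell and macrophage markers 11 were higher in GB-IL than in DIO, and 4 were called higher. Among the 4 were Cd68 by 1.33 (edgeR adjusted p = 0.0297), C1qb by 1.48 and C1qc by 1.31. The summed level of this list was 791 to 2257 CPM in GB-IL, 515 to 873 in DIO and 534 to 1260 in RYGB. Of 7 tested cholangiocyte markers 5 were higher and 2 lower. The 3 called higher were Krt19 by 2.90, Krt7 by 2.44 and Spp1 by 2.36. The summed level of these markers was 80.9 to 313 CPM in GB-IL, 55.4 to 83.5 in DIO and 81.0 to 103 in RYGB. In the GB-IL livers most of this sum was Spp1, at 286, 215.5, 205 and 49.5 CPM in livers 1 to 4. Krt7 was at 4.47, 12.3, 2.08 and 0.812 CPM in the same livers, so the sum mainly shows 1 gene. Of 10 stellate cell markers 7 were higher and 3 lower. Only Des was called higher, by 3.92, a difference that rests on GB-IL liver 1. Des was at 243, 12.7, 5.90 and 4.43 CPM in the GB-IL livers and 3.35 to 5.26 CPM in the DIO livers, and it differed by 0.79 without GB-IL liver 1 (edgeR adjusted p = 0.234). Pdgfrb differed by 0.80 (edgeR adjusted p = 0.0794), and the summed level was 276 to 868 CPM in GB-IL against 266 to 405 in DIO and 374 to 839 in RYGB. The summed level of 9 hepatocyte markers was 91580 to 123148 CPM in GB-IL and 124707 to 141015 CPM in DIO. Of these markers 4 were higher and 5 lower. Only Fgb, a fibrinogen chain, was called higher, by 1.57 (edgeR adjusted p = 0.0489). With all livers, the medians in GB-IL against DIO were 0.84 for the Kupffer cell and macrophage markers and 2.08 for the cholangiocyte markers. They were 0.45 for the stellate cell markers and -0.23 for the hepatocyte markers. Leaving out GB-IL livers 1 and 2, 0 genes of these lists were called. The medians were then 1.11, 0.45, -0.04 and -0.20 in the same order. All 11 Kupffer cell and macrophage markers were still higher. Krt19 was at 11.1, 13.7, 3.39 and 1.81 CPM in the GB-IL livers and 0.433 to 1.41 CPM in the DIO livers, and the difference of Fgb was 0.82 without GB-IL livers 1 and 2 (edgeR adjusted p = 0.599). Of hepatocyte zone markers, 8 of 10 pericentral genes were lower in GB-IL with 0 past the FDR (median -0.33, with Cyp1a2 at -1.81 and Gulo at -0.60), and 9 periportal genes had a median of 0.02 with 0 past the FDR (Cyp2f2 at -1.43, Arg1 at 0.87). These 2 medians were -0.15 and -0.01 without GB-IL livers 1 and 2. In GB-IL liver 1, where Slco1b2 was at 20.2 CPM, the summed level of hepatocyte markers was 109537 CPM. Single markers in this liver moved in unlike directions. Fgb was at 20860 CPM, against 3184 to 4967 CPM in the DIO livers. Alb was at 69890 CPM, against 91670 to 107900 in DIO, and Ttr at 1607 CPM, against 5696 to 9294. The part of other cells in the Slco results was not tested.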

How the data were processed

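RNA-seq was made from 14 livers (5 DIO, 4 GB-IL, 5 RYGB). The authors aligned reads with TopHat2 to mm10 and deposited raw HTSeq read counts per gene. The sources used here give neither the annotation release nor the strand setting. The labels describe 2 library kits but tie neither to particular livers, and an effect of kit could not be examined.

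Counts were tested with edgeR 4.0.16 (R 4.3.3) after filterByExpr and TMM scaling, in 1 quasi-likelihood fit over 14 livers with 3 contrasts and Benjamini-Hochberg adjustment. DESeq2 1.42.0 and limma 3.58.1 (voom, sample weights), other filters and scaling, a replicate block and livers left out were alternatives. Low-count members were compared by Clopper-Pearson intervals of 95% and exact permutation. Scripts were tested on simulated data. Exon lengths came from GENCODE M21 (GRCm38). In its transcripts, 1.64% of the 50-base windows of Slco1a1 and 1.61% of those of Slco1a4 also occurred in other Slco genes. How the counting treated reads that match more than 1 gene is not given in the sources used here. For Slco2a1 0.798% of the windows occurred in other genes, and for the other 5 members 0%.

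The members and the 16 gene lists were chosen with earlier results of these data known. Named genes were the 8 members, the 2 genes per list with the smallest p in GB-IL against DIO plus up to 3 past the FDR, and the 2 genes most like each tested member, but 2 of the genes so chosen are not reported here. Cell type markers, pathways and carriers were such lists. P-values measure the spread between these livers.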

Additional observations from a re-analysis of the deposited data

Results flagged for a closer look

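Slco2a1 in the DIO group held a liver apart from its group. DIO liver 3 had 30.9 CPM while the nearest of the other 4 DIO livers had 50.3 CPM, a gap of 0.712 of the group's whole range. In all, 24 sets of 1 member and 1 group were examined in this way and 1 stood out, where chance alone marks about 1 in 20. DIO liver 3 also had the least Slco1a1 of the DIO livers, at 19.3 CPM. Without it, the difference of Slco2a1 between GB-IL and DIO was -0.13 instead of 0.01. The cause was not tested.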

How the results depend on the processing

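The depth limits Slco1c1 and Slco4a1, and 4 GB-IL livers of unlike profile limit the rest. The number of members called in GB-IL against DIO was 0 by edgeR, 1 by DESeq2 and 0 to 3 when 1 liver was left out (1 without GB-IL liver 3, 3 without GB-IL liver 4, where 24.6% of all genes were called). In RYGB against DIO it was 0 by edgeR, 1 by limma's voom and 0 in each fit without 1 liver. In GB-IL against RYGB it was 0 in all. Over all genes, the calls in GB-IL against DIO went from 465 to between 0 and 3572, those in RYGB against DIO from 0 to at most 1690 and those in GB-IL against RYGB from 0 to at most 3120. Slco2a1 in GB-IL against DIO (0.01) was -0.13 by limma's voom, -0.0196 with no filter, -0.002 with 2 groups only, -0.26 to 0.13 with 1 liver left out (-0.26 without GB-IL liver 1, -0.13 without DIO liver 3), -0.30 without GB-IL livers 1 and 2 and -0.13 without DIO liver 3 and RYGB liver 1. The last 2 settings were chosen after seeing the data. Slco1b2 in RYGB against DIO was 0.0185 by voom and -0.33 to 0.0161 with 1 liver left out (0.0161 without RYGB liver 5). In GB-IL against RYGB without GB-IL livers 1 and 2, Slco1a4 was -0.26, Slco1b2 0.0602, Slco2b1 0.11 and Slco3a1 -0.14. The causes were not tested.

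The deviations of same-numbered livers from their group means had correlations of -0.381 to 0.381. Livers of unlike number were not compared in this way, so these values cannot decide whether the numbers pair the livers. With a replicate block, 0 members were called in the 3 comparisons, 1 gene was called in GB-IL against DIO, and Slco1a1 in RYGB against DIO was -0.40.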
